A study of Arabidopsis thaliana with 6 samples.

Results

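In stage 15 Arabidopsis thaliana flowers, 6 genes known from female organs were viewed: CES, GLC, ALC, NGA1, NGA2 and NGA4. They were taken from 13286 genes with a single-gene probe set, and were read by 7 of the 22810 probe sets on the array. RNA came from whole flowers, so the values do not show in which organ a member was expressed or differed. The flowers came from wild-type Columbia plants (3 arrays) and from transgenic plants overexpressing miR159a (3 arrays), a microRNA whose known targets are mRNAs of MYB transcription factors, with 1 array of total RNA per sample. The labels name neither the promoter that drives miR159a nor the transgenic line, and they do not say whether each sample came from separate plants. The titles letter the samples of either group a, b and c. Every p-value here reflects the spread among these samples alone, and that spread may be technical.

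The members were chosen by measured values of the same comparison: CES and GLC were among the probe sets called higher in the overexpressor, and ALC, NGA1, NGA2 and NGA4 were the carpel genes with the smallest p in an earlier list. Their differences between the groups are therefore given as descriptions, with no test. Tests between the groups are given for other genes of the pistil. That earlier list ranked some of these as well, so the tested genes are partly those left after that choice. In the fit used here they were not all weaker than the members. NGA1 had a difference of -0.13 (SE 0.16) and NGA4 0.15 (SE 0.16), while the tested genes BAN and ADPG1 had 0.45 (SE 0.21) and 1.60 (SE 0.19).

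The pistil holds a stigma and style at its top and an ovary below, and pollen tubes grow down through a central transmitting tract to reach the ovules. In each ovule the embryo sac holds an egg cell and a central cell, and both are fertilised. At stage 15 the stigma has grown past the long anthers, so pollination has taken place in wild-type flowers. CES, also called CESTA, is a bHLH transcription factor that acts with its relatives BEE1 and BEE3 in forming the transmitting tract and also promotes brassinosteroid synthesis. GLC (GLAUCE) is a member of the BAHD acyltransferase family that is needed in the embryo sac for fertilisation of the central cell. ALC (ALCATRAZ) is a bHLH factor of the fruit valve margin, where the pod later opens, and the NGATHA genes NGA1, NGA2 and NGA4 encode B3-domain factors that together direct the growth of style and stigma.

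The values are linear intensities, scaled by the authors, and every difference below is on the scale log2(signal + 16), which understates changes of dim probe sets. The array medians lay between 85.3 and 96.9. Arrays lettered a stood apart in RNA control ratios in both groups: the signal of the 5' over the 3' end of actin was 0.656 and 0.653 on them and 0.326 to 0.463 on the others. The ubiquitin ratio was raised on them too (0.807 and 0.886 against 0.461 to 0.560), while for GAPDH they lay within the range of the others (0.801 and 0.774 against 0.694 to 0.831). Of 17059 tested probe sets, 23 (0.135%) were called higher in the overexpressor and 370 (2.17%) lower by limma, at an adjusted p under 0.05. With the letter as a replicate block the counts were 71 and 570. Without wild-type replicate b they were 0 and 30. The median difference of all tested probe sets was 0.04.

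CES, the transmitting tract factor, had signals of 431.3, 382.6 and 352.2 on wild-type arrays a, b and c and of 679.8, 737.2 and 625.1 on the overexpressor arrays. All 3 overexpressor arrays were higher, and the lowest of them was 1.45 times the highest wild-type array. The mean was 388.7 ± 39.9 in wild type and 680.7 ± 56.1 in the overexpressor (SD, n = 3 per group). The difference was 0.79 on the log2 scale (SE 0.15), a 1.72-fold difference, which was larger than that of 99.5% of all tested probe sets. CES was chosen on this comparison, so nothing is read from that rank.

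GLC, the fertilisation gene, was read by 2 probe sets, and the one with the higher mean had signals of 780.3, 653.3 and 714.6 in wild type and 1336.6, 1312.3 and 1342.7 in the overexpressor. These groups also lay apart, with the lowest overexpressor array at 1.68 times the highest wild-type array. The difference was 0.88 (SE 0.14), or 1.84-fold, from a mean of 716 ± 63.5 to 1331 ± 16.1 (SD, n = 3 per group). The second probe set of GLC had signals of 292.5, 120.4 and 171.6 in wild type and 389.4, 355.5 and 271.3 in the overexpressor. Here the groups overlapped, since wild-type array a lay above overexpressor array c. Its difference was 0.82 (SE 0.30), which was 0.06 below that of the other probe set and so differed from it by less than either SE. With the replicate block the SE of the second probe set was 0.21. Over the 6 arrays the correlation between the probe sets of GLC was 0.82, and it was 0.88 for deviations from the group means. The array annotation does not say which part of the transcript either probe set reads.

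ALC, the valve margin factor, had signals of 396.8, 309.0 and 320.1 in wild type and 411.5, 405.6 and 474.3 in the overexpressor. The groups did not overlap, but by a narrow margin, with the lowest overexpressor array at 1.02 times the highest wild-type array. The difference was 0.32 (SE 0.16), from a mean of 342 ± 47.8 to 430.5 ± 38.1 (SD, n = 3 per group).

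Among the NGATHA members, NGA2 and NGA4 had a difference above 0 and NGA1 one below 0. Those of NGA1 and NGA4 were at most about the size of their SE, with or without the replicate block, so whether the genes share a direction is not shown. NGA2 had signals of 75.4, 68.9 and 66.3 in wild type and 76.9, 114.4 and 98.9 in the overexpressor. Overexpressor array a lay barely above the wild-type arrays (1.02 times the highest), and b and c lay well above. The difference was 0.37 (SE 0.17).

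NGA1 had signals of 84.1, 81.2 and 97.2 in wild type and 78.2, 66.0 and 91.7 in the overexpressor. The groups overlapped, and its difference of -0.13 (SE 0.16) was smaller in size than its SE. With the letter as a replicate block the SE was 0.13, about the size of the difference. NGA4 had signals of 22.0, 23.2 and 16.9 in wild type and 19.3, 26.6 and 28.4 in the overexpressor. Its groups overlapped as well, with a difference of 0.15 (SE 0.16). The signals of NGA4 lay close to the pseudocount of 16 and to the filter on dim probe sets, which corresponds to a signal of 18.4, so its difference is understated.

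NGA3, the other NGATHA gene of the style and stigma, lay below that filter and went untested. Its signals were 15.9, 12.9 and 10.2 in wild type and 19.4, 16.1 and 14.5 in the overexpressor. These groups overlapped.

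**Figure D1:**
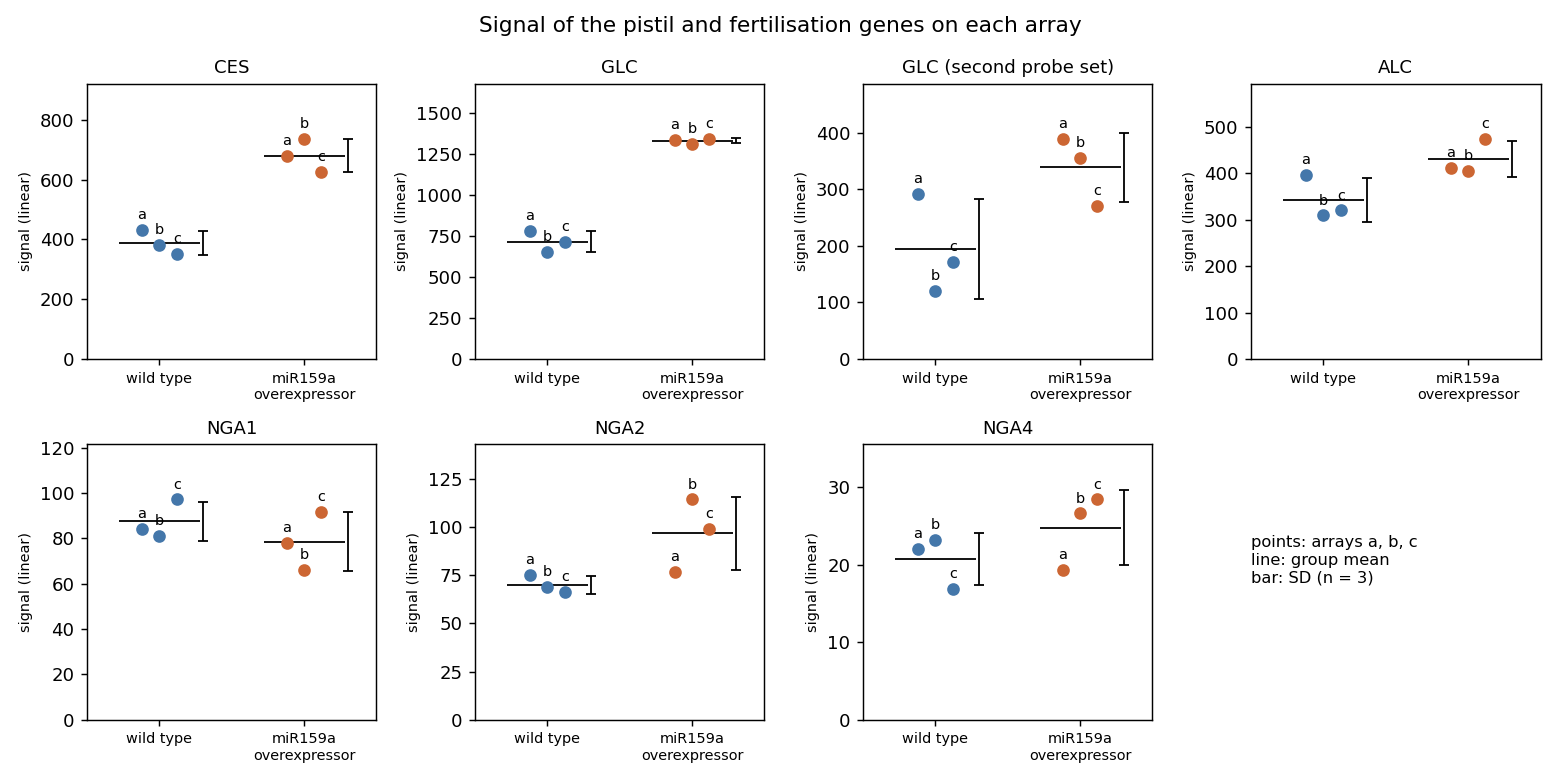
Signal (linear, axis from 0) of the 7 probe sets of the 6 genes on each array, with the replicate letter beside each point, the group mean as a line and the SD (n = 3) as a bar. The wild-type and overexpressor arrays lie well apart for CES and for the brighter probe set of GLC, barely apart for ALC and NGA2, and overlap for the second probe set of GLC, NGA1 and NGA4.

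By the highest-mean probe set, 4 of the 6 genes (CES, GLC, ALC and NGA2) had all overexpressor arrays above all wild-type arrays. Of all tested probe sets, 7.46% did so. Since the members were chosen on this comparison, nothing is read from that share. The median difference of the 6 genes was 0.35.

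Between arrays of the same letter, the CES difference was 0.64 for a, 0.92 for b and 0.80 for c, and that of GLC was 0.76, 0.99 and 0.90. Both genes were thus higher in the overexpressor under each letter, by at least 0.64. The difference of ALC was 0.05 for a, 0.38 for b and 0.54 for c, and that of NGA2 was 0.02, 0.62 and 0.48. For these 2 genes, the arrays lettered a differed little and the other letters carried the difference. NGA4 had values of -0.11, 0.12 and 0.43, and NGA1 was lower under all 3 letters, at -0.09, -0.25 and -0.07. The second probe set of GLC had 0.39, 1.45 and 0.61.

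Each of these values rests on 1 array per group, so whether the differences depend on the letter was not tested. The 25S ribosomal RNA control read 3079.6 on overexpressor array a and 11.1 to 51.2 on the other 5 arrays, wild-type array a among them. Without overexpressor array a the difference was 0.35 for ALC (SE 0.18), 0.51 for NGA2 (SE 0.16) and 0.25 for NGA4 (SE 0.17). CES (0.78), GLC (0.88) and NGA1 (-0.14) barely moved. The part of that array's RNA quality in the values of ALC and NGA2 was not tested.

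**Figure D2:**
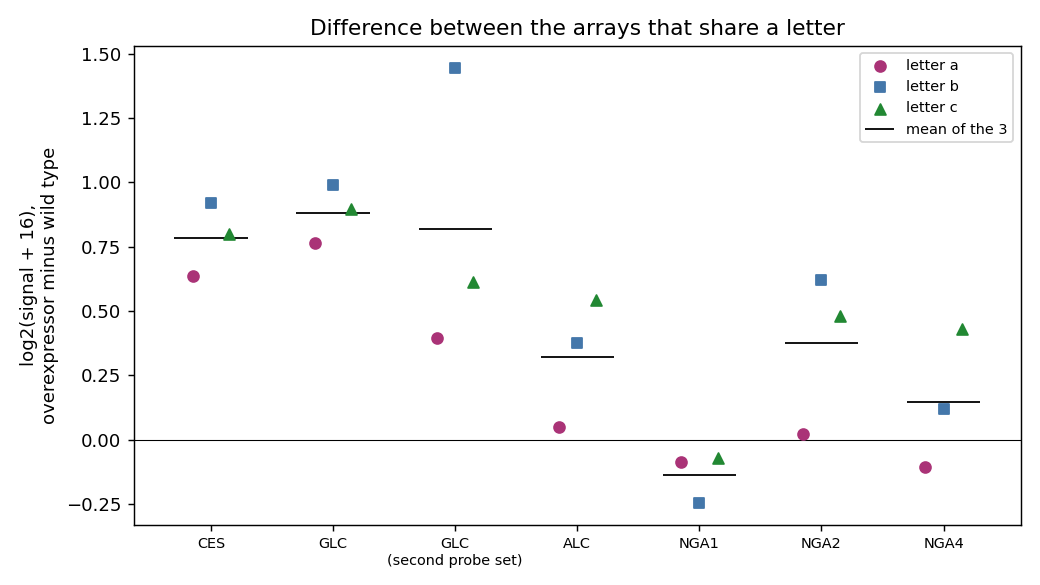
Difference between the overexpressor and the wild-type array of the same letter, on the scale log2(signal + 16), for each of the 7 probe sets, with the mean as a line. CES and both probe sets of GLC lie above 0 for every letter, ALC and NGA2 lie close to 0 for letter a, and NGA1 lies below 0 for every letter.

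Between arrays lettered a and those lettered b and c, with the group as a covariate, 863 of all tested probe sets (5.06%) were called by limma at an adjusted p under 0.05. The members' values are descriptions, since a choice by small p favours probe sets that vary little within a group, and nothing is read from them against that share. CES was 0.11 higher on the arrays lettered a (SE 0.15), GLC 0.10 (SE 0.14) and ALC 0.12 (SE 0.16). NGA1, NGA2 and NGA4 differed by -0.03, -0.13 and -0.11. The second probe set of GLC had the largest value of the 7, at 0.63 (SE 0.22), and both a arrays were the highest of their group for it. The actin and ubiquitin ratios given above were also raised on these arrays, and their part in the GLC reading was not tested.

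Other genes of the pistil were read from 4 lists covering the style and transmitting tract, the fruit valve margin, the ovule and seed coat, and the embryo sac and fertilisation. Of 81 listed genes, 22 had a single-gene probe set and 18 were tested. Of these, 1 rose, 0 fell and 17 did not pass, and 1 of the 18 had an unadjusted p under 0.05. Among all tested probe sets 0.135% rose and 2.17% fell. The median difference of the 18 was 0.09, against 0.04 for all tested probe sets, and 12 of them had a value above 0. Most tested probe sets did too, as 42.4% lay below AGL80, whose difference was 0.00. Nothing is read from the 12. The lists were written with earlier results of these data known, so the 1 of 18 that rose is no independent test of pistil genes.

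The gene that rose was ADPG1, a polygalacturonase of pod and anther opening, listed here with the valve margin. Its signals were 13.1, 11.0 and 8.6 in wild type and 84.9, 49.2 and 66.6 in the overexpressor. The difference was 1.60 (SE 0.19, limma adjusted p = 0.0107, and 0.00298 with the replicate block). It missed the threshold without wild-type replicate b (adjusted p = 0.0637). The wild-type signals lay below the pseudocount, so the difference changes with it, from 2.50 with a pseudocount of 1 to 0.80 with 64. Since ADPG1 also acts in anthers, whole flowers do not show in which organ it rose. The other valve margin genes tested were the YABBY gene YAB3, at 0.35 (SE 0.23, adjusted p = 0.806), and the zinc finger gene JAG, at -0.09.

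In the style and transmitting tract list, 4 of the 6 genes with a probe set were tested and 0 passed (limma, 0 at an unadjusted p under 0.05). SPT, a bHLH factor related to ALC that acts in style and transmitting tract, had signals of 105.8, 88.1 and 113.1 in wild type and 94.0, 141.9 and 89.9 in the overexpressor. The groups overlapped, and the difference was 0.06 (SE 0.20, adjusted p = 0.990). SHI, of the family that promotes style growth, had a difference of 0.33 (SE 0.21, adjusted p = 0.800), the auxin synthesis gene YUC2 0.20 (SE 0.24) and the co-repressor gene SEU -0.03 (SE 0.20). BEE1 and BEE3, the partners of CES, were not analysed here, and neither were the 12 listed genes of brassinosteroid synthesis and signalling.

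In the ovule and seed coat list 4 genes were tested and 0 passed (limma, 0 at an unadjusted p under 0.05). INO, which marks the outer integument of the ovule, was at 158.4, 128.0 and 136.9 in wild type and 125.4, 166.4 and 127.9 in the overexpressor. The arrays of the groups intermingled (-0.02, SE 0.17, limma adjusted p = 0.994). HLL, which is needed for ovule growth, had a difference of -0.01 (SE 0.14) and TSO1 0.13 (SE 0.16). BAN, a proanthocyanidin gene of the young seed coat, was at 192.8, 104.8 and 134.5 in wild type and 207.7, 186.0 and 198.9 in the overexpressor. Wild-type array a lay within the overexpressor range, and the difference of 0.45 (SE 0.21) did not pass (limma adjusted p = 0.638).

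In the embryo sac and fertilisation list, to which GLC is related in function, 7 genes were tested and 0 passed (limma, 0 at an unadjusted p under 0.05). EC1.2, secreted by the egg cell to activate sperm, had signals of 43.5, 48.3 and 47.3 in wild type and 36.0, 97.0 and 91.8 in the overexpressor. Overexpressor array a, the one with the high 25S ribosomal RNA reading, lay below every wild-type array, while b and c lay above them. The difference was 0.46 (SE 0.29, limma adjusted p = 0.794), and without that array it was 0.82 (SE 0.16, adjusted p = 0.0639). That setting is given for EC1.2 because its values had been seen, and it did not pass there either. EC1.5, of the same family, had 0.13 (SE 0.21), and 0.34 without that array. Other listed genes moved the other way without it, SHI to 0.13 and YUC2 to -0.01.

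AGL80 and AGL61, MADS-box genes of the central cell, had differences of 0.00 (SE 0.22) and -0.26 (SE 0.19, limma adjusted p = 0.860). FER, the receptor kinase by which the ovule receives the pollen tube, had 0.03 (SE 0.19), LIS 0.00 (SE 0.16) and the DNA glycosylase gene DME 0.12 (SE 0.17). The other probe sets of DME read -0.40 (SE 0.31) and -0.38 (SE 0.34). Their sign differed from that of the first, but with such SEs no disagreement is shown. Between letter a and the other letters they read 0.82 (SE 0.15) and -0.79 (SE 0.21).

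Among relatives of the members, 5 of 8 with a probe set were tested and 0 passed (limma, 0 at an unadjusted p under 0.05). BPE, a bHLH gene that limits petal size, had a difference of 0.26 (SE 0.17, adjusted p = 0.806). NGAL2, a NGATHA-like B3 gene, had -0.06 (SE 0.20). The BAHD acyltransferase genes HCT, CHAT and FACT had 0.02, 0.24 and -0.07.

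**Figure D3:**
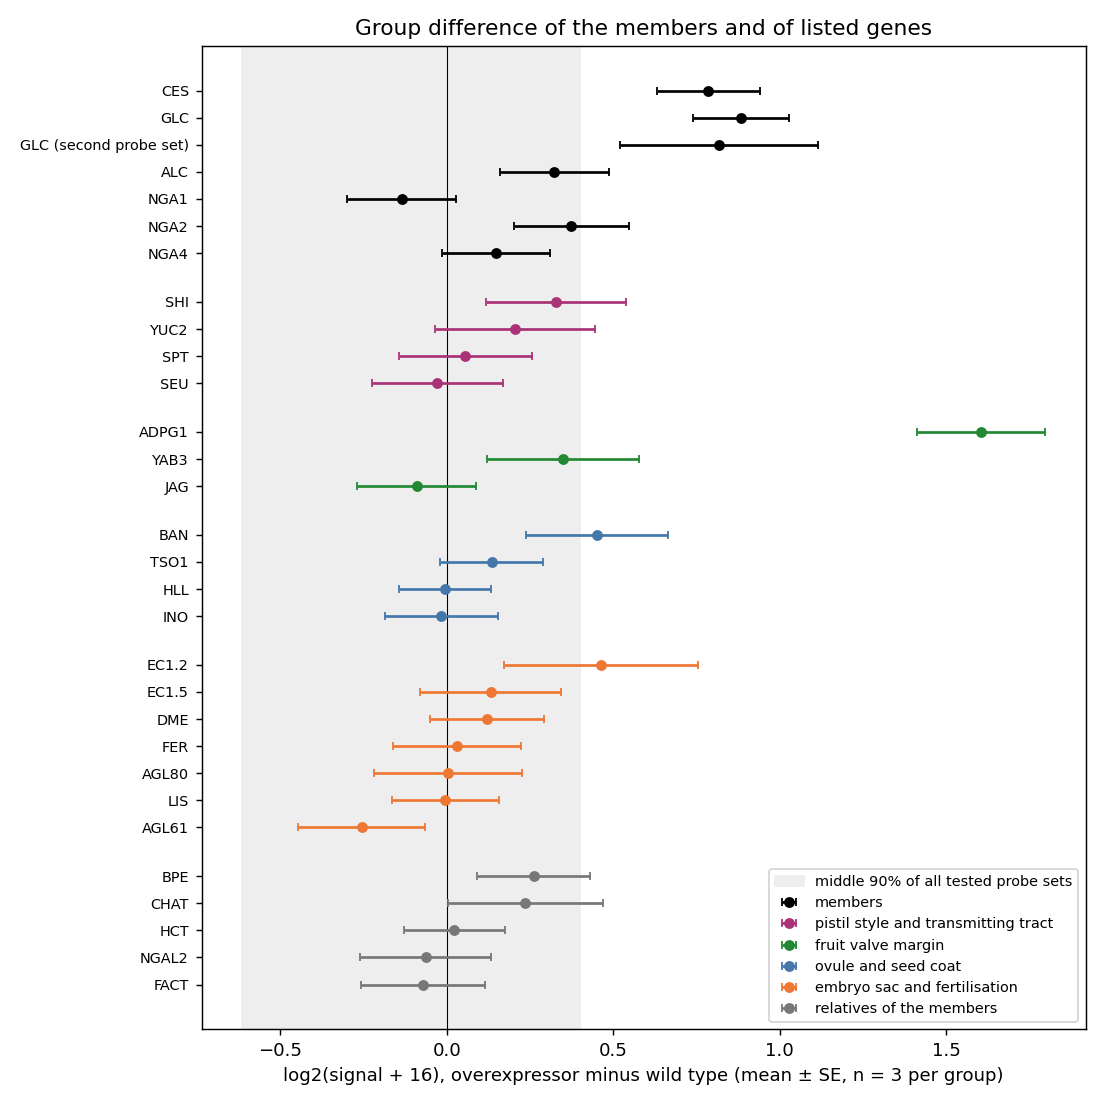
Difference between overexpressor and wild type (log2(signal + 16), mean ± SE, n = 3 per group) of the 7 member probe sets and of the tested genes of 5 lists, with the middle 90% of all tested probe sets shaded (-0.62 to 0.40). CES, both probe sets of GLC and ADPG1 lie to the right of the shading with their SE, and most listed genes lie near 0.

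Markers of other tissues were read on the same arrays. The summed signal of 14 mature pollen genes was 2102 to 5137 in wild type and 351 to 781 in the overexpressor. Of 13 tested, 10 fell, 0 rose and 3 did not pass, with a median of -1.90. Of all tested probe sets, 2.17% fell. Without overexpressor array a, only ANX2 (limma adjusted p = 0.0429) and BUPS1 (0.0362) of these markers passed, though all differences stayed below 0. Over all probe sets the lower calls also dropped in that setting, from 370 to 196. The difference moved from -3.28 to -3.17 for ANX2 and from -3.19 to -3.14 for BUPS1, and further for LRX10, from -2.80 to -2.37. No pollen marker was listed at 0, the lowest value being 1.3 for ACT12. In whole flowers fewer cells of a type and less RNA per cell cannot be told apart, and pollen tubes also grow within the pistil. The part of the pollen difference in the values of CES, GLC and ALC was not tested.

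The summed signal of 5 photosynthesis genes was 9695 to 14560 in wild type and 12366 to 17305 in the overexpressor, with a median difference of 0.24, and 0 of them passed (limma, 0 at an unadjusted p under 0.05). The 4 reference genes had a median difference of 0.13. The 8 listed genes of floral organ identity were not analysed here, so the tissue label was checked only through ovule and pollen genes. INO and ANX2 gave signal in wild type. Not all such genes did: SPL of the ovule list (1.2 to 3.9 in wild type) lay below the filter. AGL62 of the embryo sac list (8.2 to 18.1) did so as well.

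For each member, the 3 single-gene probe sets of other genes with the highest Pearson correlation over the 6 arrays were found. With so few arrays many probe sets correlate highly, and for CES 24 of 9458 exceeded 0.95. These values are descriptions, and arrays and scaling are shared by all genes. The nearest to CES were scpl47, a serine carboxypeptidase-like gene (r = 0.993), AT3G20230 (0.993) and AT1G30795 (0.986). The first and last of these had differences of 0.92 and 0.80, close to the 0.79 of CES, while AT3G20230 had 0.31. Using deviations from the group means, the correlations were 0.94, 0.90 and 0.92.

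The nearest to GLC were the peroxidase gene AT5G19880 (r = 0.991), AT2G20100 (0.990) and AT3G43270 (0.990). Their differences were 2.10, 0.27 and 0.75, against 0.88 for GLC. Using deviations from the group means, the correlations were 0.90, 0.98 and 0.69, so for AT3G43270 the likeness lay more in the group difference than in the spread within groups. The nearest to ALC were AT3G05190, AT3G29130 and AT1G34640, with r from 0.982 to 0.990 and differences of 0.63, 0.30 and 0.19.

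NGA2 was nearest to AT5G44080, AT2G38180 and AT5G28310 (r from 0.979 to 0.984). NGA4 was nearest to AT5G43822, AT1G04150 and AT5G22870 (0.977 to 0.982). NGA1 was nearest to AT5G59360, AT5G40630 and AT5G27470 (0.972 to 0.977), and 5 probe sets exceeded 0.95 for NGA1, the fewest of the 6 genes.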

How the data were processed

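Total RNA of stage 15 flowers was measured on 6 one-colour arrays, 3 per group. The deposited table gives 1 linear intensity per probe set and array. How it was made upstream is not given in the sources used here. From the values, the authors had scaled the arrays: means without the lowest and highest 2% lay between 199.0 and 199.8. Array medians on the log2 scale spanned 0.16, under the limit of 0.5, so no normalisation was added.

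All signals were transformed to log2(signal + 16). The 64 controls and the 25% of other probe sets with the lowest mean were left out. The remaining 17059 probe sets were fitted in limma 3.58.1 (lmFit, eBayes) under R 4.3.3. Tests were two-sided, p-values were adjusted by Benjamini-Hochberg over all of them, and the threshold was 0.05. In simulated data with 200 changed probe sets, the group comparison found 54% of 1-unit and 100% of 2-unit log2 changes, and the letter comparison 87% and 98%. False calls were 12 of 166 for the group and 15 of 200 for the letter. The simulated noise was independent between arrays, unlike these data, where arrays sharing a letter deviated together, so the shares may not hold here.

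Gene names came from the platform's 2016 annotation with 13513 single-gene probe sets, of which 13436 matched a RefSeq locus of TAIR10.1. Another 503 name several genes, and 8730 are unnamed here. Of 161 listed genes in 11 lists, 59 had such a probe set. Lists took a gene's probe set of highest mean. No coordinates are given, since the array build is not stated.

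Members and lists were chosen with earlier results of these data known. The text names every member, the called genes and up to 6 per list by p, and the 3 nearest patterns per member. Other genes were chosen after their values were seen.

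Deviations from group means correlated between arrays sharing a letter (r = 0.57, 0.36 and 0.38), so the letters were taken to pair the arrays. The comparison without the block was kept as set beforehand, and SEs of group differences come from it unless stated. Alternatives were other pseudocounts, filters, normalisations, array weights, an intensity trend, the block and arrays left out. The setting without both a arrays was chosen once the data had been seen.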

Additional observations from a re-analysis of the deposited data

Results flagged for a closer look

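YUC4, an auxin synthesis gene of the style list, had a signal above the wild-type level in a probe set that no comparison used, since it lay below the filter on dim probe sets. Its signals were 11.8, 7.6 and 13.2 in wild type and 21.5, 18.1 and 21.0 in the overexpressor, with means of 10.9 ± 2.91 and 20.2 ± 1.84 (SD, n = 3 per group). It was flagged because all overexpressor arrays lay above all wild-type arrays, so that order is no result. Of all tested probe sets, 7.46% had the same order. The signals lay around the pseudocount of 16, and the difference of 0.43 was not tested.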

How the results depend on the processing

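The differences of the 6 members kept their direction and moved by less than their replicate SD under all alternatives run, 16 each for CES, GLC and ALC and 15 each for NGA1, NGA2 and NGA4, which were left out with the lowest 50%. The range was 0.72 to 0.86 for CES, 0.82 to 0.95 for GLC, 0.55 to 1.13 for its second probe set, 0.25 to 0.46 for ALC, 0.25 to 0.55 for NGA2, 0.07 to 0.28 for NGA4 and -0.23 to -0.04 for NGA1. Counts of all probe sets called moved more. Against 23 higher and 370 lower, they were 13 and 209 with a pseudocount of 1, 71 and 570 with the replicate block, and 9 and 84 without both arrays lettered a. Array weights gave 39 higher, and leaving out the lowest 50% gave 180 lower. Leaving out single arrays gave 0 to 16 higher and 30 to 386 lower. Among the genes of the 4 female organ lists and the relatives of the members, ADPG1 alone was called, and 0 were called without wild-type replicate b or with the lowest 50% left out, where ADPG1 itself was not tested, so the count ran from 0 to 1. The 863 probe sets called between letter a and the others became 366 with a pseudocount of 1 and 346 with no filter. Apart from fewer arrays or probe sets, the cause was not tested. With a pseudocount of 1, all 3 nearest patterns were shared for 5 members and 2 of 3 for GLC. The rank of members under quantile normalisation was not run. Signals near the pseudocount, as for NGA4 and ADPG1, limit the size of any difference.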

Other observations

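The overexpressor arrays of the brighter GLC probe set lay very close together, with a coefficient of variation of 1.21%, against 8.87% in wild type. Of 2777 tested probe sets with an overexpressor mean over 500, 0.432% varied as little or less. GLC was among probe sets called by a test that favours small spread, so this is a description.

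Among the members, deviations from the group means ran together for ALC and the brighter GLC probe set (r = 0.82) and for NGA2 and NGA4 (r = 0.76), and ran opposite for CES and NGA1 (r = -0.82), over 6 arrays that share scaling and letters. These were picked from 21 correlations after their values were seen.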
